A study of Homo sapiens with 3 samples.

Results

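Nucleoporins are the proteins that build the nuclear pore complex, the channel through which RNA and protein cross the nuclear envelope. The genes examined were 36 chosen by function, namely nucleoporin genes together with 3 genes of the Ran cycle that powers transport and 3 genes of transport receptors. They were taken from the 19699 genes that could be named on the arrays by matching each probe's RefSeq transcript, and all 36 were found. Between them they had 50 probes, with 2 probes for 14 genes and 1 probe for the other 22. The probe used was well above background on all 3 arrays for 34 of the 36 genes, the exceptions being NUP210 and RANBP2.

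The study measured RNA of PANC-1 cells, an established line of human pancreatic ductal carcinoma. Cells were left without agent as the control, or were given cantharidin at 20 µM or okadaic acid at 20 µM, and the treatment lasted 24 h. Both doses are those of the sample labels, while the wording of the treatment protocol leaves the okadaic acid dose open. Cantharidin is a terpenoid from blister beetles and okadaic acid is a polyether toxin made by marine dinoflagellates, and both inhibit the serine/threonine phosphatase PP2A. Each group was 1 array of total RNA labelled with the dye Cy3, on which the brightness of a spot follows the amount of its transcript, so the differences below could not be checked against replicates or tested.

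The pore is a ring-shaped assembly with an outer scaffold on each face of the nuclear envelope, the Y complex, and an inner ring between them. Membrane nucleoporins anchor the scaffold, and nucleoporins rich in phenylalanine-glycine repeats fill the central channel and form the barrier that transport receptors can cross. Filaments reach into the cytoplasm and a basket reaches into the nucleoplasm. Importins and exportins carry cargo through the channel, and the small GTPase Ran, loaded with GTP at chromatin by RCC1 and discharged in the cytoplasm with the help of RANGAP1, gives the transport its direction. The complex is taken apart when a cell enters mitosis and is rebuilt on the chromatin of the daughter nuclei.

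Of 34041 probes, between 23071 and 25103 were well above background on an array, and no spot was saturated. The dimmest such probe lay between 24.1 (the cantharidin array) and 48.6 (the okadaic acid array) on the scale used below, which keeps the control intensities as measured and brings the 75th percentile of the other arrays to that of the control. Intensities below are in these arbitrary units. A gene was read from its probe with the highest mean signal, and levels of different probes cannot be set against each other. Probes printed in 10 spots gave a spot noise of 0.10 (SD of a log2 difference between arrays for cantharidin against control), 0.09 for okadaic acid against control and 0.11 for the agents against each other, which leaves out any spread between cultures. The keratins KRT7, KRT8, KRT18 and KRT19, markers of ductal epithelium, were well above background on every array, between 2503 and 161963. The acinar marker CPA1 did not clear the background on any array, and neither did the brighter probe of the endothelial marker PECAM1, of which another probe did so in control cells. Probes of PTPRC, CD3E and CD14, which mark blood cells, were well above background on all 3 arrays, with ranges of 259 to 2535 in control cells, 246 to 2023 with cantharidin and 327 to 9253 with okadaic acid. CDH5 and VWF of endothelium and PRSS1 and CELA3A of acinar cells were also above background, and the part of these signals in the differences below was not tested.

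Promoters of 5 genes are shown because these genes were among those with the widest differences in their structural groups, NUP210 of the membrane ring, NUP37 and NUP107 of the Y complex, NUP58 of the central channel and NUP88 of the cytoplasmic face. Each is the RefSeq window of GRCh38.p14 from 250 bases before to 50 bases after the annotated start, read 5′ to 3′ along the gene. The windows were chr3:13420273-13420572 on the minus strand for NUP210, chr12:102120065-102120364 on the minus strand for NUP37, chr12:68686728-68687027 on the plus strand for NUP107, chr13:25301375-25301674 on the plus strand for NUP58 and chr17:5419613-5419912 on the minus strand for NUP88. Capitals mark matches to any of 6 short motifs, searched on both strands. These were the Sp1 box GGGCGG and the box of nuclear factor Y, CCAAT. The others were the motif of E2F factors, TTCCCGC, the cell cycle homology element TTTGAA, the motif of NRF1 written as GCATGCG, and that of ETS factors, CGGAAGT.
NUP210: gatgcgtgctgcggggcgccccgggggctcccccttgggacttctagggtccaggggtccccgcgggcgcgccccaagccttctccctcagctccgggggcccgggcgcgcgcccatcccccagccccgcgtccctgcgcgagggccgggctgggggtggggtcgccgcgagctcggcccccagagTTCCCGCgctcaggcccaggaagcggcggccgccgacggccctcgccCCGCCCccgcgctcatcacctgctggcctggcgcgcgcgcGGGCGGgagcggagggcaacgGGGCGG
NUP37: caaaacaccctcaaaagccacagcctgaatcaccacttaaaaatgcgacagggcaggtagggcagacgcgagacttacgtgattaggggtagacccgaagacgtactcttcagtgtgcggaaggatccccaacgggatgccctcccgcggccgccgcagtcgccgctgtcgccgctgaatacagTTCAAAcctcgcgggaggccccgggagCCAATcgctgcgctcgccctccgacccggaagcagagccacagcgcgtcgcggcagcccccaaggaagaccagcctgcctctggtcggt
NUP107: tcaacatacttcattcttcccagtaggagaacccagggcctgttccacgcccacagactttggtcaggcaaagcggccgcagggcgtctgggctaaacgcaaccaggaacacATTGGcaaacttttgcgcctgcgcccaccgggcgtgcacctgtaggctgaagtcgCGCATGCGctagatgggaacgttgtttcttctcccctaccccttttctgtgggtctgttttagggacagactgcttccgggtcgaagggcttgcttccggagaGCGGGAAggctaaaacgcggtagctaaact
NUP58: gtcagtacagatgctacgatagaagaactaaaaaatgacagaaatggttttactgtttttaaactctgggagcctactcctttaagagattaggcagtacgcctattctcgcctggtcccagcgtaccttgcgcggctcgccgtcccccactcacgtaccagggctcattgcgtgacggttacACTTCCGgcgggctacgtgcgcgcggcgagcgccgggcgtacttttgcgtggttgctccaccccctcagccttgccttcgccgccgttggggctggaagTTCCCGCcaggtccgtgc
NUP88: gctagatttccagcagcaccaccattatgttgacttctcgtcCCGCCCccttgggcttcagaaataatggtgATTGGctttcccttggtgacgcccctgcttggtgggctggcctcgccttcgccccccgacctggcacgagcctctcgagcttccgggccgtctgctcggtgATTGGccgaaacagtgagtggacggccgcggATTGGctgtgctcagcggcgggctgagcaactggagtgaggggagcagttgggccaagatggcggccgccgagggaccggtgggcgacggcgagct
The NUP210 window held 3 Sp1 boxes and an E2F motif, and the NUP88 window held an Sp1 box and 3 CCAAT matches, the nearest of them 46 bases before the start. NUP37 had a CCAAT match 39 bases and a TTTGAA match 66 bases before its start. The NUP107 window held a CCAAT match, an E2F motif 20 bases after the start and an NRF1 motif that reads on both strands as overlapping matches. In the NUP58 window an ETS motif lay 67 bases before the start and an E2F motif 32 bases after it.

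Windows were found for 33 of the 36 genes, and NUP43, AHCTF1 and KPNB1 had no entry. The ETS motif was in 9 of these 33 windows (27.3%), against 6.83% of all 35116 promoter windows, and the E2F motif was in 7 (21.2%), against 6.55%. The NRF1 motif was in 4 (12.1%, against 3.91%) and TTTGAA in 8 (24.2%, against 15.2%). Sp1 boxes, in 16 windows (48.5%), and CCAAT, in 13 (39.4%), were close to their shares of all windows, 45.0% and 34.6%. Median GC content was 63.7% in the members' windows and 58.7% in all windows. Among the 12 windows of genes lower under cantharidin, 4 held the E2F motif and 2 the ETS motif, while 1 and 4 of the 10 windows of genes higher under cantharidin did. Sp1 boxes were in 8 of the 12 and 4 of the 10, CCAAT in 7 and 4, TTTGAA in 2 and 3, and NRF1 in 1 and 1. Under okadaic acid, 8 windows of lower genes and 13 of higher ones held E2F motifs in 2 and 1 and ETS motifs in 1 and 3. Sp1 boxes were in 5 and 3 of these, CCAAT in 4 and 4, TTTGAA in 1 and 3, and NRF1 in 0 and 2. None of these contrasts was tested. A Sp1 box and an E2F motif can overlap, and these letter matches are a description only.

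With cantharidin, 10 of the 35 genes compared were at least 1.5-fold higher than in control cells and 13 were at least 1.5-fold lower. Over all 16644 genes compared, 27.5% were that much higher and 34.1% that much lower (61.6% in all), so the members' shares of 28.6% and 37.1% were near those of the array as a whole. With okadaic acid, 15 of 36 genes were higher (41.7%, against 28.1% of 16166 genes) and 8 were lower (22.2%, against 28.8%), where 56.9% of all genes passed in either direction. The 15 include RANBP2, which was compared only because of its okadaic acid signal. Among genes well above background on all 3 arrays, 14 of 34 members were higher and 7 lower, beside 4008 and 3877 of all 14222 genes. The median log2 difference of the members was -0.38 under cantharidin and 0.15 under okadaic acid, beside -0.16 and 0.01 over all genes. RNA of a whole culture was measured, so a smaller share of cells that make a transcript and less transcript per cell cannot be told apart. Both agents were set against the same control array, and any error in it enters both.

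**Figure D1:**
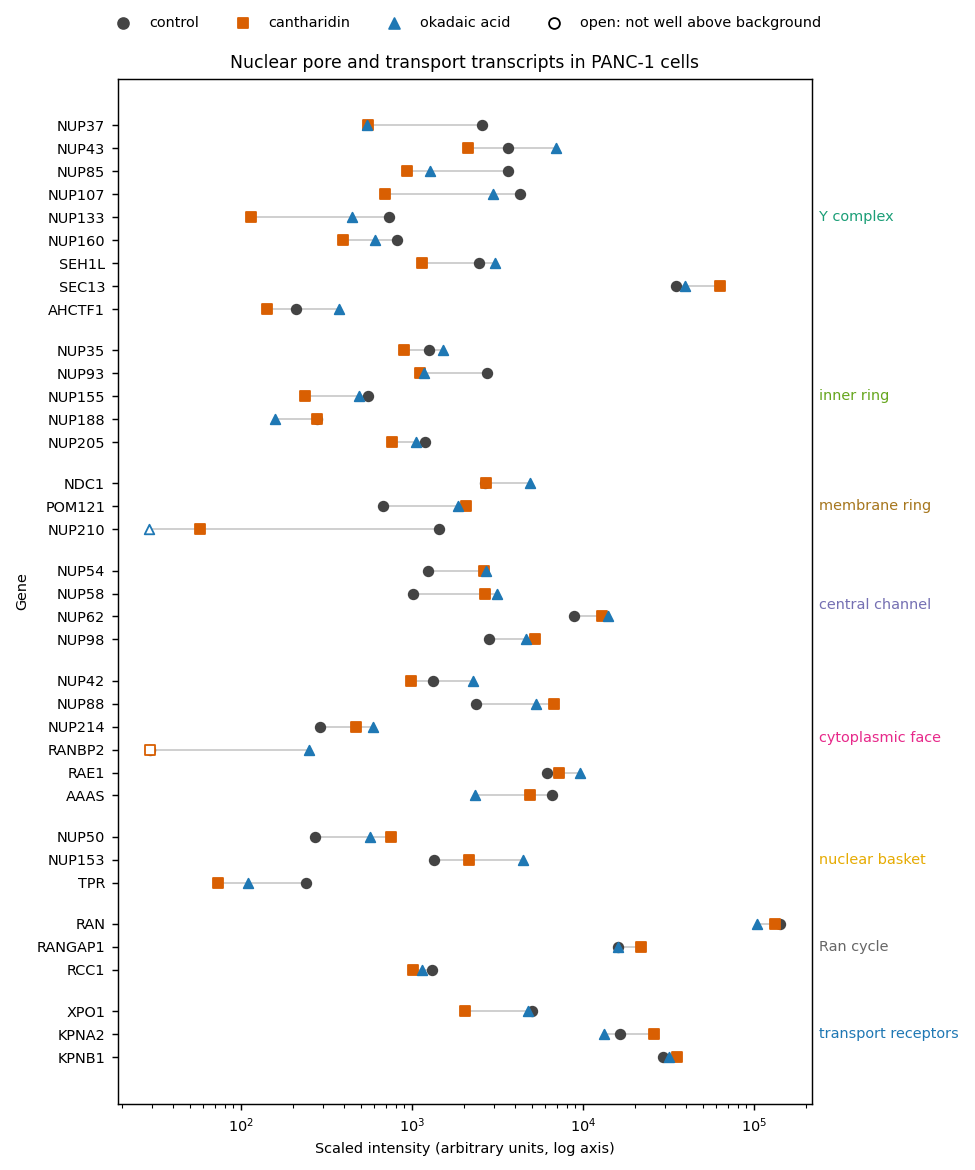
Scaled intensity (arbitrary units, log axis) of the 36 genes on the arrays of control cells and of cells given cantharidin or okadaic acid, 1 array each, grouped by place in the pore, with open symbols where a signal was not well above background. Among Y complex genes the cantharidin symbol is left of the control for all but SEC13, and all 4 central channel genes have both treated symbols right of the control.

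The Y complex, the outer scaffold of the pore, was the group with most genes lower under cantharidin. Of its 9 genes 7 were at least 1.5-fold lower (77.8%, against 34.1% of all genes) and 1 was higher. The 7 include NUP43 and SEH1L, which with the median over probes had log2 differences of -0.40 and 0.46 and were within 1.5-fold. The median log2 difference of the group was -1.10 and below 0 under every alternative scaling and setting (-1.24 without scaling). NUP107, a subunit of the stem of the Y, had intensities of 4248 in control cells, 692 under cantharidin and 2951 under okadaic acid. The cantharidin signal was 6.14-fold below the control, and that under okadaic acid was 1.44-fold below it. NUP133, its partner at the end of the stem, had signals of 735 in control cells, 115 under cantharidin and 442 under okadaic acid. It was 6.42-fold lower with cantharidin and 1.66-fold lower with okadaic acid. Both stem genes thus had most of their signal left under okadaic acid and little of it under cantharidin. A dimmer NUP133 probe had a different course, with 59.7, 52.9 and, not well above background, 21.0, so its cantharidin difference was within 1.5-fold and its okadaic acid signal was at least 1.23-fold lower.

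NUP37 and NUP85, which belong to the arms of the Y, were lower with both agents. NUP37 gave 2544 in control cells, 553 under cantharidin and 543 under okadaic acid, log2 differences of -2.20 and -2.23. For NUP85 the signals were 3616, 939 and 1275 in the same order, 3.85-fold and 2.84-fold below the control. NUP160, another arm subunit, went from 814 in control cells to 395 under cantharidin and 608 under okadaic acid. Its cantharidin difference was 2.06-fold and its okadaic acid difference, 1.34-fold, was within the threshold. NUP43, a small arm subunit, was the one gene past 1.5-fold in opposite directions. Its signal was 3648 in control cells, 2114 under cantharidin (1.73-fold lower) and 6954 under okadaic acid (1.91-fold higher). The second NUP43 probe, with 72.1, 72.0 and 122, was also higher under okadaic acid (1.69-fold) but level under cantharidin.

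SEH1L and SEC13 are small scaffold proteins with a second life outside the pore, SEC13 in the coat of secretory vesicles and SEH1L in a complex that controls the growth kinase mTORC1. SEC13 was the Y complex gene with a higher signal under cantharidin, 63339 against 34898 in control cells and 39359 under okadaic acid. That is 1.81-fold above the control with cantharidin, and its second probe was 1.57-fold higher (6071 against 3862). Under okadaic acid the second probe was 1.75-fold lower, at 2203, while the brighter one was within 1.5-fold. SEH1L cannot be given 1 direction under cantharidin. Its brighter probe had 2446 in control cells, 1143 under cantharidin and 3057 under okadaic acid, and the other probe, which matched another transcript of the gene, had 645, 2611 and 1221. The first was 2.14-fold lower with cantharidin and the second 4.05-fold higher. AHCTF1 encodes ELYS, which binds chromatin and starts pore assembly after mitosis. It was at 210 in control cells, 141 under cantharidin (1.49-fold lower, just inside the threshold) and 373 under okadaic acid (1.78-fold higher).

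The inner ring, which links the outer scaffold to the membrane and to the channel, had no gene that was at least 1.5-fold higher with either agent. Of its 5 genes 3 were lower under cantharidin and 2 under okadaic acid. Over all genes 34.1% and 28.8% were lower, and 27.5% and 28.1% higher. The median log2 differences of the ring were -0.65 and -0.18, the latter turning to 0.07 without scaling between arrays. NUP93, which holds the inner ring together, went from 2745 in control cells to 1115 under cantharidin and 1170 under okadaic acid. Both treated signals were close to each other and 2.46-fold and 2.35-fold below the control. NUP155, a membrane-binding subunit, had 554 in control cells, 236 under cantharidin and 490 under okadaic acid, and was thus 2.35-fold lower with cantharidin and within 1.5-fold with okadaic acid. The large scaffold subunit NUP205 gave 1192, 761 and 1051, a 1.57-fold lower signal with cantharidin. Its paralog NUP188 had the other order of agents, with 277 in control cells, 277 under cantharidin and 157 under okadaic acid, 1.76-fold below the control. These 2 calls were the least settled of the ring, since NUP205 came within 1.5-fold after normexp background correction (1.41-fold) and with scaling on probes well above background on all arrays (1.49-fold), and NUP188 did so after that correction (1.46-fold) and without scaling (1.48-fold).

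NUP35, the inner ring subunit that bends membranes, had a probe printed in 10 spots on each array. Its intensity was 1259 in control cells, 898 under cantharidin and 1518 under okadaic acid. The spots lay between 1189 and 1332 in control cells and between 869 and 940 under cantharidin (9 spots, 1 having been left out). Under okadaic acid they lay between 1337 and 1676. With this scaling the spots of the 3 arrays did not overlap, but the control and okadaic acid ranges nearly met. Median scaling brought the okadaic acid log2 difference from 0.27 to 0.15, and overlap of the spots was not examined with it. The differences from control, 1.40-fold lower and 1.21-fold higher, were still within 1.5-fold. A second NUP35 probe gave 1.48-fold lower with cantharidin and 1.05-fold higher with okadaic acid. Spots of a probe share their RNA and array and are not replicates of a condition.

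Membrane nucleoporins, which span the nuclear envelope and fix the pore in it, included the gene with the lowest difference of all 36 with each agent. NUP210 had an intensity of 1426 in control cells, 57.5 under cantharidin and 29.1 under okadaic acid, the last not well above background. It was 24.8-fold lower with cantharidin and at least 29.3-fold lower with okadaic acid, counted against the lowest signal measured on that array. These sizes depend on the background correction, and the log2 differences were -3.38 and -3.67 with normexp and -5.08 and -6.44 in the deposited table. POM121 went the other way, from 673 in control cells to 2074 under cantharidin and 1854 under okadaic acid. Those signals were 3.08-fold and 2.75-fold above the control. POM121 has a near-identical copy, POM121C, and whether the probe tells them apart was not tested. NDC1, the third membrane subunit, was level in control cells and under cantharidin (2684 and 2692) and 1.81-fold higher under okadaic acid (4861). The 3 genes thus had 3 different patterns.

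The central channel was the group whose genes were higher with both agents. Under okadaic acid all 4 were at least 1.5-fold higher (28.1% of all genes), and under cantharidin 3 were (27.5% of all genes). Over the settings run, the median log2 difference lay between 0.86 and 1.24 with cantharidin and between 0.80 and 1.18 with okadaic acid. NUP54, NUP58 and NUP62 form a complex whose phenylalanine-glycine repeats line the channel. NUP54 gave 1238 in control cells, 2639 under cantharidin and 2701 under okadaic acid. NUP58 gave 1008, 2651 and 3126 in the same order. The treated signals of NUP54 were 2.13-fold and 2.18-fold above the control, and those of NUP58 2.63-fold and 3.10-fold. NUP62 was changed less, from 8877 to 12950 under cantharidin (1.46-fold) and 13910 under okadaic acid (1.57-fold). A second NUP62 probe was 1.17-fold higher with cantharidin and 2.13-fold higher with okadaic acid. NUP98 encodes a repeat nucleoporin of both faces, made from a precursor that also yields the Y complex subunit NUP96. Its brighter probe had 2802 in control cells, 5257 under cantharidin and 4620 under okadaic acid, 1.88-fold and 1.65-fold higher. The other NUP98 probe, which matched another transcript, had 749, 5967 and 1939. It was 7.97-fold higher with cantharidin and 2.59-fold higher with okadaic acid, so both probes had 1 direction but not 1 size.

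On the cytoplasmic face, 2 of 5 genes compared were higher under cantharidin and none lower (27.5% and 34.1% of all genes). Under okadaic acid 5 of 6 were higher and 1 lower (28.1% and 28.8% of all genes). The 5 include RANBP2, which was compared only because its signal was well above background under okadaic acid. NUP88 and NUP214 form the complex that holds the cytoplasmic filaments and binds the exportin XPO1. NUP88 went from 2377 in control cells to 6784 under cantharidin and 5275 under okadaic acid, 2.85-fold and 2.22-fold above the control. NUP214 was at 291, 472 and 593 in the same order, 1.62-fold and 2.04-fold higher. Both genes of the complex were thus higher with both agents. NUP42, which docks the mRNA export factor GLE1, had 1324 in control cells, 979 under cantharidin and 2256 under okadaic acid. The 1.70-fold higher okadaic acid signal was found on its second probe as well, at 2.18-fold. RAE1, an mRNA export factor bound to NUP98, gave 6110, 7265 and 9556, with the okadaic acid signal 1.56-fold higher.

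RANBP2, the largest protein of the cytoplasmic filaments, was below background in control cells (29.2) and under cantharidin (29.1), and at 248 under okadaic acid. Its okadaic acid signal was at least 7.09-fold above the control, and no fold is given for cantharidin. With normexp background correction the okadaic acid difference was smaller, 1.16 on the log2 scale, so the bound applies to the processed signal. Its second probe was below background on all arrays, and the RGPD genes are near-identical copies of part of RANBP2 that this probe may also bind. AAAS, which encodes the nucleoporin ALADIN and is altered in Allgrove syndrome, was the single gene of this face with a lower call. It went from 6577 in control cells to 4913 under cantharidin and 2334 under okadaic acid, 1.34-fold and 2.82-fold below the control.

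In the nuclear basket, NUP50 and NUP153 were higher and TPR lower with both agents. NUP153 anchors the basket, and its signal was 1340 in control cells, 2147 under cantharidin (1.60-fold higher) and 4433 under okadaic acid (3.31-fold higher). NUP50, which helps to release cargo from importin alpha, had 270, 749 and 566, 2.78-fold and 2.10-fold above the control. Its second probe was higher by 1.44-fold with cantharidin and 1.85-fold with okadaic acid. TPR builds the filaments of the basket. It had a low signal throughout, 239 in control cells, 73.3 under cantharidin and 109 under okadaic acid, 3.27-fold and 2.19-fold lower, and its second probe was below background on all arrays.

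Of the genes that drive transport, none of the 3 in the Ran cycle passed 1.5-fold with either agent on its brighter probe. Over all genes 61.6% passed with cantharidin and 56.9% with okadaic acid. RAN itself had 142254 in control cells, 132303 under cantharidin and 104282 under okadaic acid, and its second probe gave 23615, 21190 and 11437, which under okadaic acid was 2.06-fold lower. RAN and KPNA2 have near-identical copies elsewhere in the genome, and whether their probes tell these apart was not tested. RANGAP1, the GTPase activator, was at 16079, 21663 and 15875, and RCC1, the nucleotide exchange factor, at 1314, 1013 and 1139. Among the receptors, XPO1 (also CRM1), the main exporter of proteins, was 2.47-fold lower under cantharidin, at 2026 against 4999 in control cells, and level under okadaic acid, at 4771. KPNA2, an importin alpha that reads classical nuclear localization signals, was 1.57-fold higher under cantharidin (25882 against 16469) and 1.24-fold lower under okadaic acid (13305). KPNB1, the importin beta that carries it through the pore, had 29119, 35363 and 31760 and stayed within 1.5-fold on both of its probes.

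Set side by side by the probe used for each gene, 6 genes were at least 1.5-fold lower with both agents, namely NUP37, NUP85, NUP133, NUP93, NUP210 and TPR. Another 8 were higher with both, namely POM121, NUP54, NUP58, NUP98, NUP88, NUP214, NUP50 and NUP153. Under cantharidin the dimmer probes of NUP133, in the first set, and of NUP50, in the second, were within 1.5-fold. The first set held scaffold, membrane and basket genes, and the second held genes of every structural group other than the Y complex and the inner ring. NUP98 is counted there as a central channel gene, although its precursor also yields the Y complex subunit NUP96. The genes past the threshold with cantharidin and within it with okadaic acid were 6 lower ones (NUP107, NUP160, NUP155, NUP205, XPO1 and, on its brighter probe alone, SEH1L) and 2 higher ones (SEC13 and KPNA2). With okadaic acid and not cantharidin, NUP188 and AAAS were lower, and AHCTF1, NDC1, NUP62, NUP42, RANBP2 and RAE1 were higher. NUP35, RAN, RANGAP1, RCC1 and KPNB1 stayed within 1.5-fold with both agents. The second RAN probe was 2.06-fold lower under okadaic acid, and NUP35 was 1.54-fold lower under cantharidin without scaling. Over all genes, 61.6% passed 1.5-fold with cantharidin and 56.9% with okadaic acid, and the share that passed with both was not counted. Whether these sets are larger than for other genes is therefore not known. They share the control array, so their overlap is a description.

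**Figure D2:**
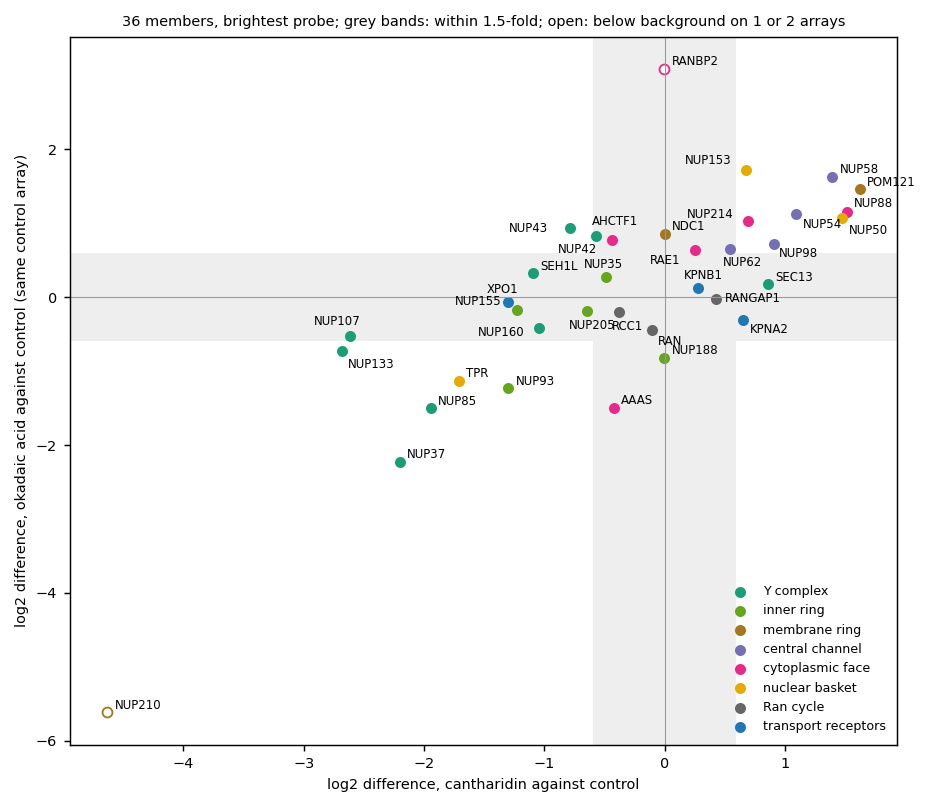
The log2 difference from control of each of the 36 genes under cantharidin (horizontal axis) and okadaic acid (vertical axis), both against the same control array, with grey bands for differences within 1.5-fold and open symbols for genes below background on 1 or 2 arrays. NUP210 lies far to the lower left, NUP43 is the one gene outside both bands in opposite directions, and NUP107 and XPO1 lie left within the okadaic acid band. RANBP2 is drawn at its measured cantharidin difference, which compares signals below background on both arrays.

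The agents were also compared directly, at the doses the sample labels give. Relative to cantharidin, 13 of 36 genes were at least 1.5-fold higher under okadaic acid and 5 were that much lower, where 29.5% and 22.3% of all 16200 genes compared were higher and lower (51.8% in all). RANBP2 is among the 13 only because it was well above background under okadaic acid. Among genes well above background on all 3 arrays, 12 of 34 members were higher and 4 lower, beside 4304 and 2850 of all 14222 genes. The median log2 difference of the members was 0.28 beside 0.13 over all genes. In the Y complex 6 of 9 genes were higher under okadaic acid and 1 was lower, with a median log2 difference of 1.40. NUP107 was 4.26-fold higher under okadaic acid than under cantharidin, NUP133 3.86-fold, NUP43 3.29-fold, SEH1L 2.67-fold, AHCTF1 2.65-fold and NUP160 1.54-fold. The second probes of NUP133 and SEH1L had the opposite direction, and with the median over probes both genes came within 1.5-fold and the group's median was 0.44. Outside this complex, RANBP2 was 8.51-fold higher than its own cantharidin signal. That signal was not well above background, so the fold is no firm bound, and with normexp the log2 difference was 1.32. XPO1 was 2.36-fold higher, NUP42 2.30-fold, NUP155 2.08-fold, NUP153 2.06-fold, NDC1 1.81-fold and NUP35 1.69-fold. The lower genes were AAAS (2.10-fold), KPNA2 (1.95-fold), NUP188 (1.76-fold), SEC13 (1.61-fold) and NUP210. NUP210 was not well above background under okadaic acid, and its signal there is bounded as at least 1.18-fold lower, so that 4 genes in place of 5 were lower once its signal was raised to the lowest one measured on that array, and likewise with normexp background correction. On the brighter probe no central channel gene differed by 1.5-fold between the agents, with log2 differences between -0.19 and 0.24. The second probes did differ, that of NUP98 being 3.08-fold lower under okadaic acid and that of NUP62 1.82-fold higher, and with the median over probes NUP98 was 1.87-fold lower.

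Of the 14 genes with 2 probes, 11 had both probes measured in the comparison of each agent with control. In each of these comparisons 10 of the 11 had probes of the same sign. SEH1L was the exception under cantharidin, with its probes past 1.5-fold in opposite directions, and SEC13 was the exception under okadaic acid. Probe pairs of NUP35, NUP42, RAN and KPNB1 under cantharidin differed by little, while those of NUP98, NUP133, NUP50 and NUP43 were also more than 1.5-fold apart. The second probes of AHCTF1, RANBP2 and TPR were too dim to compare.

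**Figure D3:**
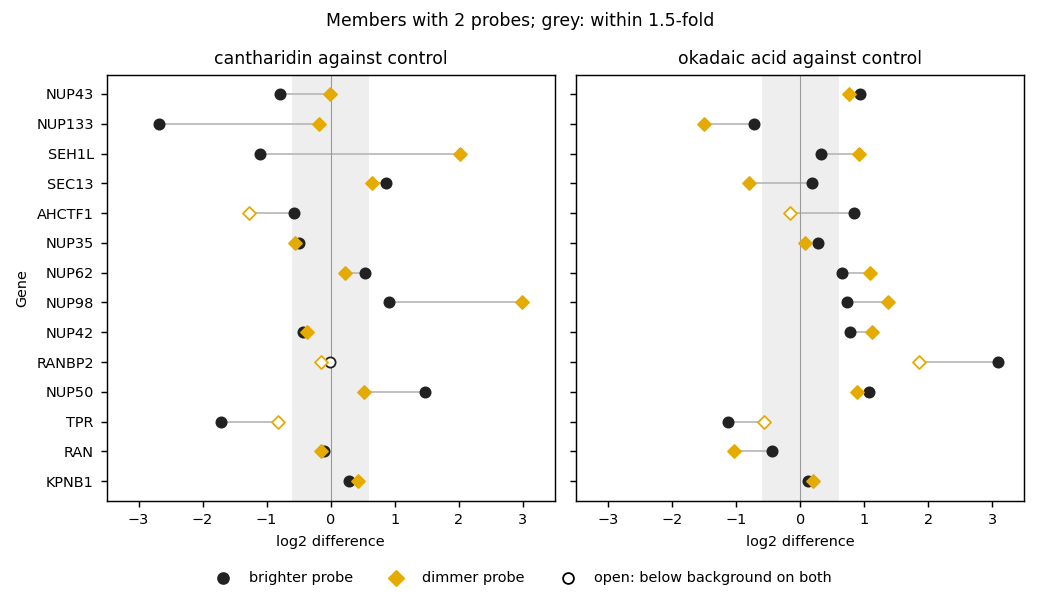
The log2 difference from control for the brighter and the dimmer probe of the 14 genes with 2 probes, under cantharidin (left) and okadaic acid (right), with grey for differences within 1.5-fold and open symbols for probes below background on both arrays. The SEH1L probes lie at -1.10 and 2.02 under cantharidin, and the NUP98 probes at 0.91 and 2.99.

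Other scalings and summaries of the same arrays left most calls in place. The other filters leave a gene's own difference as it was and could not change its call. Under cantharidin 7 of the 10 higher and 10 of the 13 lower genes were called in every alternative at 1.5-fold that gave them a value, and those that were not were NUP43, SEH1L, NUP205, NUP214, NUP153 and KPNA2. Under okadaic acid 13 of 15 higher and 6 of 8 lower genes were, the others being NUP133, NUP188, NUP62 and RAE1. Of these, NUP43 and SEH1L came within 1.5-fold under cantharidin with the median over probes. NUP210 was lower with both agents in every alternative that measured it.

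**Figure D4:**
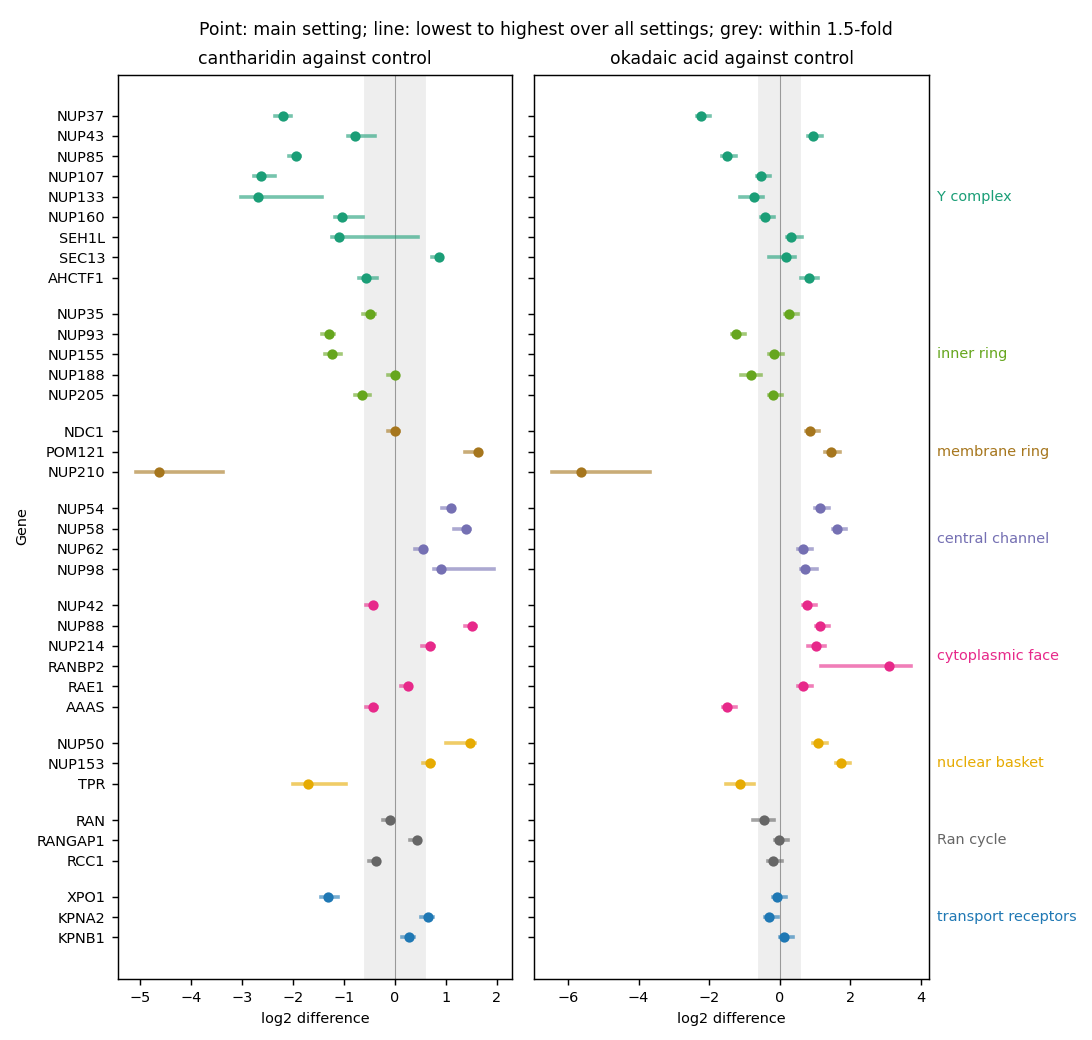
The log2 difference from control of each gene under cantharidin (left) and okadaic acid (right), with the point for the reported setting, the line from the lowest to the highest value over all settings run, and grey for differences within 1.5-fold. SEH1L under cantharidin is the one called gene whose line crosses zero, and NUP210 and RANBP2 have long lines on the side of their point.

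The remaining transport machinery was described with 4 further lists. Of 23 other importins and exportins compared, 9 were higher and 6 lower under cantharidin (median log2 difference -0.18), and 7 of 20 were higher and 4 lower under okadaic acid (median 0.02). Over all genes the shares were 27.5% higher and 34.1% lower under cantharidin and 28.1% and 28.8% under okadaic acid. KPNA7, an importin alpha best known from oocytes, had 249 in control cells, 7852 under cantharidin and 2645 under okadaic acid, 31.5-fold and 10.6-fold higher. TNPO3, which imports splicing factors, was 3.17-fold and 2.96-fold higher, and the tRNA exporter XPOT was 3.51-fold higher with cantharidin. The cantharidin array had lower signals of KPNA3, another importin alpha (5.16-fold), of the import receptor IPO8 (4.49-fold) and of CSE1L (3.86-fold), which returns importin alpha to the cytoplasm. Among 6 other Ran factors, RANBP1, which helps RANGAP1, went from 26255 in control cells to 7503 under cantharidin and 25606 with okadaic acid, while RANBP10 was 5.19-fold and 3.66-fold higher with the agents.

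Of 20 mRNA export genes, 9 were higher and 2 lower under cantharidin, and 9 were higher and 5 lower under okadaic acid, with medians of 0.53 and 0.36. That is 45.0% higher and 10.0% lower under cantharidin (27.5% and 34.1% of all genes), and 45.0% and 25.0% under okadaic acid (28.1% and 28.8%). NXF1, the main mRNA export receptor, had 328 in control cells, 3499 under cantharidin and 3617 under okadaic acid, log2 differences of 3.41 and 3.46. PCID2, which belongs to a complex that couples transcription to export at the pore, was 25.2-fold and 4.84-fold higher. THOC6 of the THO complex was 11.1-fold higher with cantharidin, at 5738 against 519, and level with okadaic acid at 485. Another THO subunit, THOC7, was 2.91-fold and 2.23-fold lower.

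Genes of the nuclear envelope and lamina, the membrane and filament layer that holds the pores, had more lower than higher calls. Of 16, 8 were lower and 2 higher under cantharidin and 7 were lower and 2 higher under okadaic acid, with medians of -0.58 and -0.45. Over all genes 34.1% and 28.8% were lower and 27.5% and 28.1% higher. LMNB1, a B-type lamin, went from 2466 in control cells to 200.2 under cantharidin and 904 under okadaic acid, 12.3-fold and 2.73-fold lower. LBR, the lamin B receptor, was 4.82-fold and 2.27-fold lower. TMPO, which encodes lamina-associated polypeptides, was 6.35-fold lower under cantharidin, at 387 against 2459. SYNE2, a nesprin that ties the nucleus to the cytoskeleton, was 2.65-fold higher under okadaic acid.

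**Figure D5:**
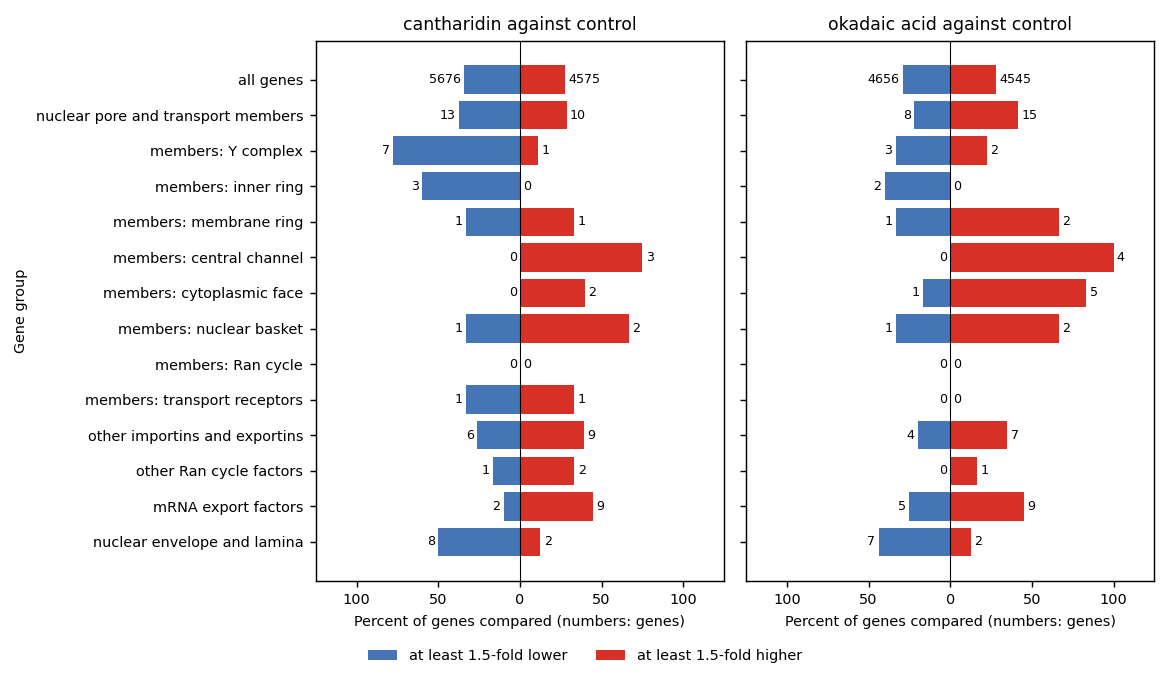
Percent of genes compared that were at least 1.5-fold lower (bars to the left) or higher (bars to the right) than control under cantharidin and okadaic acid, with the number of genes beside each bar, for all genes, the 36 members, the members by place and 4 other lists. Under cantharidin 7 of 9 Y complex genes are lower and 3 of 4 central channel genes higher, and the bars for all members are close to those for all genes.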

How the data were processed

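The authors hybridised Cy3-labelled total RNA of PANC-1 cells to 3 arrays of 1 Agilent 1-colour design, 1 array per group, with groups taken from the sample labels. The deposited scanner files hold spot intensity from Feature Extraction 11.0.1.1, background-subtracted and detrended within each array and not scaled between arrays, per the file headers, which give hg19 for the annotation. Flags for saturation, outliers and signal well above background are other deposited columns. The authors also deposited a table of log2 values of 30923 probes, whose normalization is not given in the sources used here. Each column had a median log2 value of 7.74 and matched its own array (r of at least 0.998, at most 0.938 with another), and it was used as an alternative.

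Spots with outlier flags were left out, log2 intensity was averaged per probe, and each array's 75th percentile (784, 713 and 936) was subtracted. Probes were named through RefSeq accessions of GRCh38.p14 without version, which named 25705 probes and 19699 genes. Gene coordinates were not used, since the builds differ, other than those of the RefSeq promoter windows. A gene was compared when either array of the comparison measured its probe well above background, and called at 1.5-fold. A dim signal gave "at least" folds against the lowest signal well above background on its array or its own signal, whichever was higher. Where its own signal was higher, the fold is the measured ratio and not a firm bound. The members, lists and tests were chosen with earlier results of these data known. All members are named. For each other list a rule took up to 3 genes per agent and direction. These had the largest difference among genes well above background on both arrays whose detected probes moved the same way. Only part of the genes that met this rule are named above. Those left out include TNPO2, DDX39A and both lamina genes higher under cantharidin, LEMD2 and TOR1AIP2.

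The arrays were on 1 slide with 1 scan, so batches could not be tested, and each group had its own place on the slide. Their number limits the precision. Alternatives were normexp with an offset of 50 (on the median spot signal), 3 other scalings, no scaling, 2 other filters, the deposited table, a 2-fold threshold, the median over probes and, chosen after seeing the data, dim signals set to the array floor. Counting was tested on simulated data. Software was limma 3.58.1 (R 4.3.3), and pandas 2.3.3, numpy 2.4.6 and matplotlib 3.10.9 (Python 3.11.15). A further marker of the list for blood cells is not reported here.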

Additional observations from a re-analysis of the deposited data

Results flagged for a closer look

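NUP43, a subunit of the Y complex, was past 1.5-fold in opposite directions with the agents, lower under cantharidin (log2 difference -0.79) and higher under okadaic acid (0.93). The okadaic acid signal was above the cantharidin signal by 1.72 on the log2 scale (1.7181), with 1 array on each side. This difference was not tested. The second NUP43 probe gave 0.76 for the same comparison, but it was level under cantharidin (72.0 against 72.1 in control cells), and with the median over probes the cantharidin difference was -0.40, within 1.5-fold.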

How the results depend on the processing

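No paired analysis was possible because each group had 1 array. The member median under cantharidin (-0.38) was -0.51 without scaling, -0.24 without a filter and with a filter on all 3 arrays, and -0.13 with the median over probes. The okadaic acid median (0.15) was 0.028 with median scaling, 0.26 with quantile normalization and with the deposited table, and 0.40 without scaling. Between the agents the median (0.28) was 0.13 with median scaling and 0.68 without scaling, where 2 genes in place of 5 were lower under okadaic acid. At 2-fold, 5 genes were higher and 11 lower under cantharidin, and 8 were higher and 6 lower under okadaic acid. Relative to cantharidin, 10 were higher and 1 was lower under okadaic acid. Over all genes, 3344 were 2-fold higher and 3707 lower of 16644 under cantharidin, and 3033 and 3067 of 16166 under okadaic acid. Between the agents these counts were 2676 and 2198 of 16200. With the median over probes SEH1L turned to a log2 difference of 0.46 under cantharidin. The share of higher calls among members went from 43.5% to 31.8% under cantharidin and from 72.2% to 90.5% between the agents without scaling (over all genes, 44.6% to 38.9% and 56.9% to 77.2%), and to 61.1% between the agents with the median over probes. The 2-fold threshold gave 31.2% under cantharidin and 90.9% between the agents (over all genes, 47.4% and 54.9%). For okadaic acid against control the share over all genes went from 49.4% to 62.0% without scaling. Without scaling the median of all genes was -0.30 for cantharidin, 0.26 for okadaic acid and 0.52 between the agents, and with median scaling it was -0.11 for okadaic acid. The medians of the membrane ring under cantharidin and of the Ran cycle, the receptors and the inner ring under okadaic acid changed sign in at least 1 setting. Of the values of single genes, 783 moved by less than the spot noise of their comparison, 281 moved by more, and 1 that was past 1.5-fold reversed. Part of the 783 was fixed in advance, so their number does not measure stability. The 2 other filters leave a gene's own difference as it was, and the array floor changes dim signals only. The median over probes cannot change the 22 genes with 1 probe. Differences within 1.5-fold changed sign in other cases, among them NUP188 under cantharidin and RANGAP1 under okadaic acid. Depth is set by the dimmest measured signal, which was highest on the okadaic acid array and leaves NUP210 with a bound there. RANBP2 was below background on the control and cantharidin arrays, and its bound against control was set by the control array.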
